A study of Mus musculus with 6 samples.

Results

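The MHC and immunoproteasome genes of the mouse heart ventricle were a named list of 10 antigen presentation genes: H2-K1, H2-D1, B2m and Tap1 of the class I route, the inducible proteasome subunits Psmb8, Psmb9 and Psmb10, and H2-Aa, H2-Ab1 and Cd74 of the class II route. The list named them by symbol without use of their measured values in the rule, and each symbol was matched to its Ensembl identifier through GENCODE M21. All 10 were found among the 54232 genes in the count files, and all 10 were among the 14133 genes with enough reads to be tested. The question was whether the class I and class II genes differed between WD + Tributyrin and WD + Vehicle hearts, and whether the classes differed in the same way. H2-Ab1 was the member with the largest difference, at a mean 60.4% higher with Tributyrin, but no member passed an FDR of 10%. The class I and immunoproteasome members differed by less than 10% between the group means.

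Every mouse was a C57BL/6J animal of WT genotype on western diet (WD), and RNA was taken from the heart ventricle. The groups were 3 mice given Tributyrin, a triglyceride that releases butyrate, at 5 g/kg body weight and 3 mice given vehicle, which the labels call PBS. Mice had eaten WD for 15 weeks before the 3 weeks of treatment, so both groups shared the diet and the comparison holds no chow-fed heart. The labels give no age and no sex. Xist was at most 0.237 CPM (counts scaled to library size) and Ddx3y was between 68.4 and 85.5 CPM in all 6 libraries. By these transcripts all 6 libraries read as male, although the paper used male and female mice. The labels number the mice within each group but do not say whether they shared a cage, litter or day, so p-values measure only the spread between these mice.

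MHC class I molecules sit on nearly all nucleated cells and show peptides from inside the cell to cytotoxic T cells. These peptides are cut by the proteasome, whose constitutive catalytic subunits can be replaced by the inducible subunits of the immunoproteasome, and they are carried into the endoplasmic reticulum by the TAP transporter. MHC class II molecules are made mainly by dendritic cells, macrophages and B cells, and they show peptides from engulfed material to helper T cells. In heart muscle the class I route operates in many cell types, and class II transcripts come largely from resident immune cells.

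The libraries held 20369746 to 32734485 counts on genes, and the 10 members took 0.0436% to 0.068% of the counts of a library. Cardiomyocyte markers (the list labelled ventricular cardiomyocyte: Myh6, Tnnt2, Tnni3, Actc1, Myl2 and Myl3) summed to 48940 to 53230 CPM. Atrial markers summed to 182.0, 172.4 and 53.8 CPM in vehicle replicates 1 to 3 and to 31.04, 64.4 and 46.3 CPM in the Tributyrin replicates, so vehicle replicates 1 and 2 stood apart from the other libraries in atrial transcripts. Mitochondrial transcripts took 23.6% to 26.5% of the counts with vehicle and 25.9% to 28.8% with Tributyrin. For the members, Tributyrin replicate 2 stood apart: it was the highest of the 6 libraries for 9 of the 10 genes, all but Psmb10. Values without it are given beside the results that it moves. In bulk tissue, fewer cells of a type and less RNA per cell cannot be told apart.

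Promoter sequences are shown first because the start sites of MHC genes carry known control motifs. Whether these motifs bear on the differences between libraries was not tested. RefSeq (GRCm38.p6) gave a window of 250 bases before and 50 bases after the start for 8 of the 10 members, not for H2-Ab1 or Cd74. The 4 motifs searched on both strands were AANNGAAA (the core bound by interferon regulatory factors), GGGNNTTCC (a form bound by NF-kB), TGACG (the start of a cyclic AMP response element, part of the MHC X box) and CCAAT (the NF-Y site, the MHC Y box). Capitals below mark the matches, which are matches of letters and not measured binding. The lines give H2-K1 at chr17:34000348-34000597 (minus strand), B2m at chr2:122147437-122147686 (plus strand), the stretch between the Psmb9 and Tap1 starts at chr17:34187331-34187555 (plus strand) and H2-Aa at chr17:34287824-34288073 (minus strand), each ending at the base before the RefSeq start.
H2-K1: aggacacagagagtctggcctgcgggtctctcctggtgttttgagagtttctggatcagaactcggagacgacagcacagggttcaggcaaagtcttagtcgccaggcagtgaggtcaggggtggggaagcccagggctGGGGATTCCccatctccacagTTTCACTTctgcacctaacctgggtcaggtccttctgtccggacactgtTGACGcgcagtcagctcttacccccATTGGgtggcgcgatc
B2m: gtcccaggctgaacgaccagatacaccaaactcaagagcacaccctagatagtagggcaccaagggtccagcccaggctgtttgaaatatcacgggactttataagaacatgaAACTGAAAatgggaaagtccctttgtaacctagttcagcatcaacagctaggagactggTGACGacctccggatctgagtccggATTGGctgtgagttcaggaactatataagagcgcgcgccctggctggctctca
Tap1: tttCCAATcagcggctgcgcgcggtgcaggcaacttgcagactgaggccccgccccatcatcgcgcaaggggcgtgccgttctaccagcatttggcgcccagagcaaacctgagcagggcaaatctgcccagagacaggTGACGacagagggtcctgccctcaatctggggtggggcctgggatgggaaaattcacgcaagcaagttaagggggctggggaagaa
H2-Aa: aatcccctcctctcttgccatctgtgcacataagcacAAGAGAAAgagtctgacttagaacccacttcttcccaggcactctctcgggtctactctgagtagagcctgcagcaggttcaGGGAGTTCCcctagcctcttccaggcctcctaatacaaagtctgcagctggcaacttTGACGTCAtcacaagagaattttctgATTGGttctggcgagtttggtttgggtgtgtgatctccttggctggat
AANNGAAA was in the windows of H2-K1, H2-D1, B2m and H2-Aa, 4 of 8, and in 23.9% of all 32851 promoter windows of the same length. GGGNNTTCC was in the windows of H2-K1, H2-D1 and H2-Aa, 3 of 8, and in 5.82% of all windows. TGACG and CCAAT were each in 6 of 8 member windows, against 20.8% and 37.4% of all windows. The H2-Aa line carries TGACG on both strands, and these matches overlap in the run of capitals. The windows of Psmb8 and Psmb10 held none of the 4 motifs. The windows of Tap1 and Psmb9 shared 275 bases, since these genes start in opposite directions from the same stretch. Their TGACG and CCAAT matches are therefore the same sites, counted for both genes.

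Levels were compared between genes as RPKM, the CPM divided by the exonic length in kilobases. B2m, the light chain common to all class I molecules, was the most abundant member at 154.4 ± 27.4 RPKM (SD, n = 3) with vehicle, rank 201 among the 14133 genes tested. The heavy chain H2-D1 followed at 54.9 ± 6.76 RPKM, H2-K1, another heavy chain, was at 30.9 ± 3.62 RPKM, and Cd74, the class II invariant chain, was at 27.3 ± 1.55 RPKM. Psmb10 was at 17.5 ± 0.965 RPKM. The class II beta chain H2-Ab1 was at 6.65 ± 0.504 RPKM and the alpha chain H2-Aa at 5.07 ± 0.349 RPKM. Psmb8, Psmb9 and Tap1 were lowest, at 1.74 ± 0.15, 1.29 ± 0.154 and 1.17 ± 0.309 RPKM, and Tap1 ranked 9816. Over all 6 libraries the ranges of B2m and H2-D1 did not overlap, nor did those of H2-K1 and Psmb10, of Psmb10 and H2-Ab1, or of H2-Aa and Psmb8. In order of level, H2-D1 overlapped with Cd74 and Cd74 with H2-K1, as did H2-Ab1 with H2-Aa, and Psmb8, Psmb9 and Tap1 with each other.

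**Figure D1:**
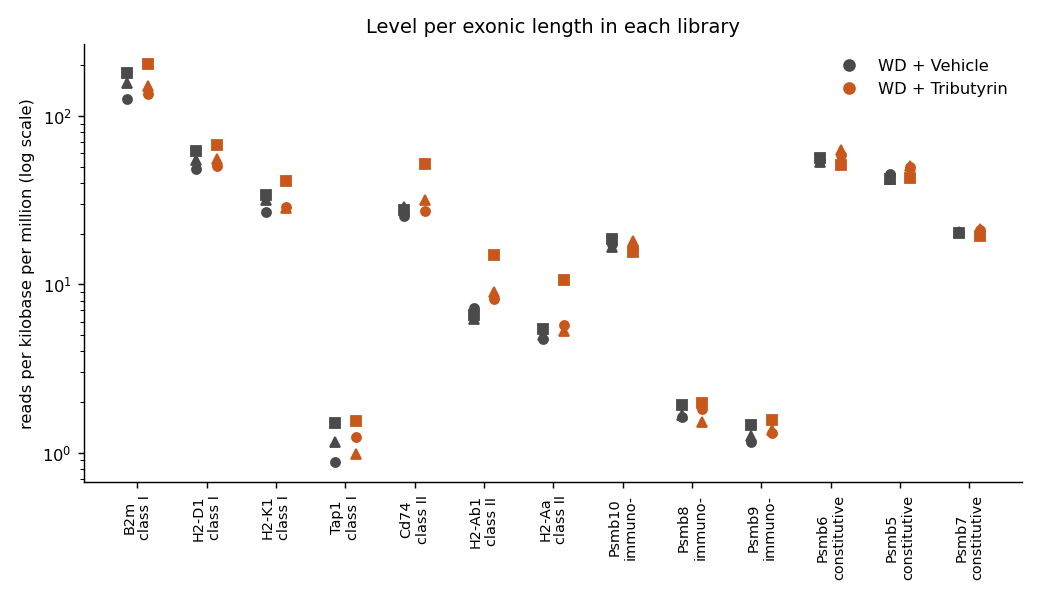
Level of each member and of the 3 constitutive catalytic proteasome subunits in RPKM (log scale); each point is a library, circles, squares and triangles are replicates 1, 2 and 3, grey is WD + Vehicle and orange is WD + Tributyrin. B2m lies highest, at 125.8 to 203.7 RPKM, and Tap1 lowest, at 0.873 to 1.53 RPKM.

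The class I members were H2-K1 (ENSMUSG00000061232, chromosome 17, 33996017 to 34000347, minus strand), H2-D1 (ENSMUSG00000073411, chromosome 17, 35262730 to 35267499, plus strand), B2m (ENSMUSG00000060802, chromosome 2, 122147686 to 122153083, plus strand) and Tap1 (ENSMUSG00000037321, chromosome 17, 34187553 to 34197225, plus strand), all on GRCm38. Below, values per library are CPM scaled by the TMM method, for replicates 1, 2 and 3 in turn. H2-K1, a classical class I heavy chain, was at 79.2, 100.1 and 92.9 CPM with vehicle and at 84.0, 120.4 and 83.5 CPM with Tributyrin. Replicate 2 was the highest of each group, and the groups overlapped. The log2 fold change of H2-K1 (Tributyrin over vehicle) was 0.08 (SE 0.142, 95% interval -0.23 to 0.40, unadjusted p = 0.579 in edgeR's quasi-likelihood test).

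H2-D1, the other classical heavy chain measured here, was at 124.8, 159.6 and 140.4 CPM with vehicle and at 129.8, 173.2 and 143.7 CPM with Tributyrin. The groups overlapped, and the log2 fold change was 0.07 (SE 0.118, unadjusted p = 0.55). B2m was at 108.2, 155.2 and 135.0 CPM with vehicle and at 115.4, 175.2 and 130.2 CPM with Tributyrin. Its order of libraries was close to that of the heavy chains it pairs with, and its log2 fold change was 0.08 (SE 0.159, unadjusted p = 0.632). The ratio of H2-K1 to H2-D1 counts stayed between 0.581 and 0.695 in the 6 libraries.

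Tap1, a subunit of the peptide transporter, was at 4.78, 8.16 and 6.34 CPM with vehicle and at 6.73, 8.40 and 5.35 CPM with Tributyrin. The vehicle libraries alone spanned nearly the range of all 6, and the log2 fold change was 0.08 (SE 0.212, 95% interval -0.39 to 0.55, unadjusted p = 0.702). Tap2, the partner subunit, was at 14.3 ± 0.276 CPM with vehicle and 14.9 ± 1.53 CPM with Tributyrin, with a log2 fold change of 0.06 (SE 0.104, unadjusted p = 0.593). All 4 class I members had a higher mean with Tributyrin, by 5.20% to 6.23%, and without Tributyrin replicate 2 all 4 had a lower fitted level, with log2 fold changes of -0.12 to -0.05. Without vehicle replicate 1, the lowest library for all 4, they lay between -0.09 and -0.0031. The intervals with all libraries still held differences of up to 0.55 on the log2 scale for Tap1 and 0.43 for B2m.

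**Figure D2:**
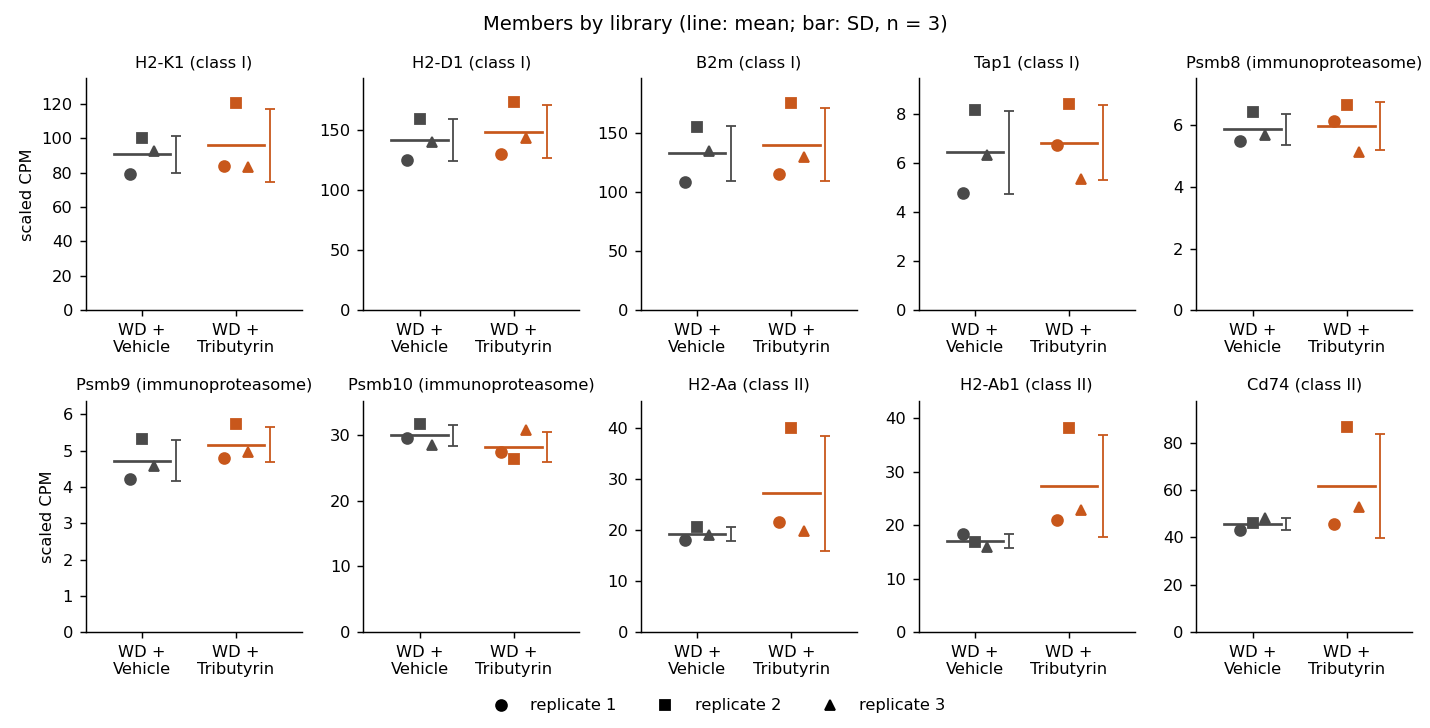
Scaled CPM of the 10 members in each library, with replicate numbers as symbols, the group mean as a line and the SD (n = 3) as a bar; vertical axes start at 0 and differ between panels. For H2-Aa, H2-Ab1 and Cd74 the square of Tributyrin replicate 2 lies far above the other 5 libraries, at 40.0, 38.3 and 86.5 CPM.

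The immunoproteasome members were Psmb8 (ENSMUSG00000024338, chromosome 17, 34197721 to 34201454, plus strand), Psmb9 (ENSMUSG00000096727, chromosome 17, 34181987 to 34187764, minus strand) and Psmb10 (ENSMUSG00000031897, chromosome 8, 105935735 to 105938444, minus strand). Psmb8, which takes the place of Psmb5, was at 5.49, 6.45 and 5.68 CPM with vehicle and at 6.16, 6.66 and 5.14 CPM with Tributyrin. Its groups overlapped, and its log2 fold change of 0.03 (SE 0.142, unadjusted p = 0.856) turned to -0.04 with scaling by library size alone. Psmb9, which takes the place of Psmb6, was at 4.23, 5.33 and 4.59 CPM with vehicle and at 4.81, 5.72 and 4.96 CPM with Tributyrin. The groups overlapped here too, with a log2 fold change of 0.13 (SE 0.149, unadjusted p = 0.42). Psmb9 and Tap1 overlap on opposite strands in the annotation, and whether the counting used strand is not given in the sources used here, so reads in the overlap cannot be assigned with certainty.

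Psmb10, which takes the place of Psmb7, lies outside the MHC region and had another pattern. It was at 29.5, 31.7 and 28.5 CPM with vehicle and at 27.4, 26.4 and 30.7 CPM with Tributyrin, and Tributyrin replicate 2 was the lowest library. The groups overlapped, and the log2 fold change was -0.09 (SE 0.087, 95% interval -0.28 to 0.11, unadjusted p = 0.337). Counting error set part of the spread for the rare subunits, at up to 9.21% of the value in a library for Psmb8 and 10.2% for Psmb9, against 4.08% for Psmb10.

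The inducible subunits were then set against the constitutive subunits they replace, per length and within each library. With vehicle, Psmb8 was at 4.04% ± 0.447 (SD, n = 3) of Psmb5 and Psmb9 at 2.35% ± 0.245 of Psmb6, whereas Psmb10 was at 86.2% ± 5.34 of Psmb7. With Tributyrin these shares were 3.77% ± 0.81, 2.49% ± 0.495 and 80.5% ± 4.52. The ratio of Psmb10 to Psmb7 was 84.3%, 92.2% and 82.0% in the vehicle libraries and 76.2%, 80.0% and 85.2% in the Tributyrin libraries. Two-sided exact permutation tests on the log2 ratios gave p = 0.7, 0.8 and 0.3, all 0.8 after Benjamini-Hochberg adjustment over the 3 ratios, and 3 mice against 3 cannot give less than 0.1. Without Tributyrin replicate 2 the difference for Psmb9 to Psmb6 turned from 0.07 to -0.09 on the log2 scale. The level of Psmb5 is uncertain because 47.4% of its windows of 50 bases occur in transcripts of other genes. Neither Psmb5, Psmb6 nor Psmb7 passed the threshold, at log2 fold changes of 0.14, 0.07 and 0.01.

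The class II members were H2-Aa (ENSMUSG00000036594, chromosome 17, 34282744 to 34287823, minus strand), H2-Ab1 (ENSMUSG00000073421, chromosome 17, 34257689 to 34269419, plus strand) and Cd74 (ENSMUSG00000024610). H2-Ab1, the class II beta chain, was at 18.5, 16.9 and 15.9 CPM with vehicle and at 20.9, 38.3 and 22.9 CPM with Tributyrin. Every Tributyrin library lay above every vehicle library. The means were 17.1 ± 1.29 and 27.4 ± 9.47 CPM (SD, n = 3), and the log2 fold change was 0.68 (SE 0.197, 95% interval 0.25 to 1.12), with an unadjusted p of 0.00573 and an adjusted p of 0.999 (edgeR, quasi-likelihood, adjusted by the Benjamini-Hochberg method over all 14133 genes). By unadjusted p it ranked 74 among these genes.

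H2-Aa, the class II alpha chain, was at 18.1, 20.7 and 19.0 CPM with vehicle and at 21.6, 40.0 and 19.9 CPM with Tributyrin. Tributyrin replicate 3 lay below vehicle replicate 2, so the groups overlapped. The mean was 41.1% higher with Tributyrin, and the log2 fold change was 0.50 (SE 0.223, 95% interval 0.004 to 0.99, unadjusted p = 0.0485, edgeR). The alpha and beta chains form 1 molecule, and the ratio of H2-Aa to H2-Ab1 counts lay between 0.867 and 1.23 in the 6 libraries. H2-Aa was the higher in 4 libraries and H2-Ab1 in vehicle replicate 1 and Tributyrin replicate 3.

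Cd74, the invariant chain that guides class II molecules to the compartment where they take up peptide, was at 43.0, 46.2 and 48.1 CPM with vehicle and at 45.6, 86.5 and 52.8 CPM with Tributyrin. Tributyrin replicate 1 lay below vehicle replicate 2, so the groups overlapped. The mean was 34.7% higher with Tributyrin, with a log2 fold change of 0.43 (SE 0.193, 95% interval 0.0029 to 0.86, unadjusted p = 0.0487, edgeR). The SD with vehicle was 2.61 CPM and with Tributyrin 21.8 CPM.

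Tributyrin replicate 2 set much of the class II difference. It was 2.02 times the mean of the other 5 libraries for H2-Aa, 2.01 times for H2-Ab1 and 1.84 times for Cd74, against 1.37 times for H2-K1, 1.36 times for B2m and 0.892 times for Psmb10. Without this library the log2 fold change fell to 0.11 (unadjusted p = 0.308) for H2-Aa and to 0.10 (unadjusted p = 0.269) for Cd74. H2-Ab1 kept a log2 fold change of 0.36 (SE 0.102, 95% interval 0.13 to 0.59, unadjusted p = 0.00669, adjusted p = 0.389, edgeR). Without vehicle replicate 1 or 2, the libraries high in atrial transcripts, H2-Ab1 was at 0.75 (unadjusted p = 0.00957) and 0.67 (unadjusted p = 0.02).

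**Figure D3:**
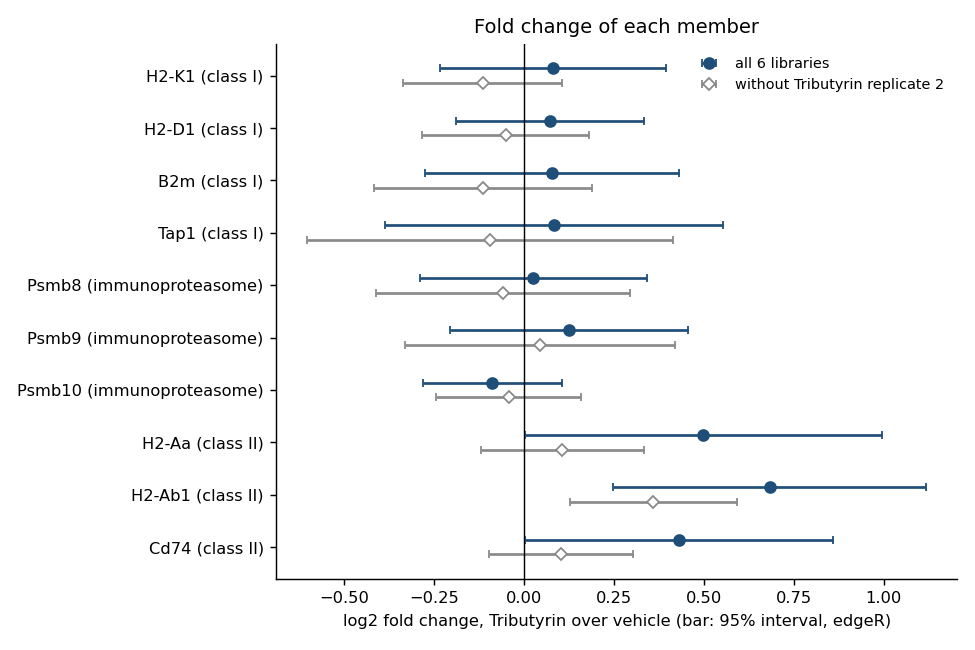
Log2 fold change (Tributyrin over vehicle) of each member with its 95% interval from edgeR, with all 6 libraries (filled circles) and without Tributyrin replicate 2 (open diamonds). With all libraries the 3 class II members lie at 0.43 to 0.68 and the other members at -0.09 to 0.13; without that library the interval of H2-Ab1 alone stays above 0.

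In counts, 0 of the 10 members passed an FDR of 10%, as did 0% of all genes tested. An unadjusted p under 0.05 was given for 3 of 10, the 3 class II members, against 4.25% of all genes. Without Tributyrin replicate 2 this count was 1, H2-Ab1, against 9.56% of all genes. It was also 1, H2-Ab1, without vehicle replicate 1, 2 or 3, against 4.9%, 2.82% and 2.68% of all genes. The groups did not overlap for 1 of 10, H2-Ab1, with Tributyrin higher, against 4.34% of all genes, and for 0 of 10 with Tributyrin lower, against 4.61%. The adjusted p was 0.999 for each of the 10. With no filter on low counts all 3 class II members passed an FDR of 10%, at adjusted p of 4.07e-07 to 0.00134, and so did 167 genes in all.

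Class I and class II were compared by the median over their members. The median log2 fold change was 0.08 for the 4 class I members, 0.03 for the 3 immunoproteasome members and 0.50 for the 3 class II members, a difference of 0.42 between class II and class I, beside a median of -0.0013 over all genes tested. Per library, the mean log2 CPM of class II minus that of class I was -0.97, -1.41 and -1.24 with vehicle and -0.98, -0.55 and -0.90 with Tributyrin. The groups overlapped by the small gap between vehicle replicate 1 and Tributyrin replicate 1. The group means were -1.21 ± 0.221 and -0.81 ± 0.229 (SD, n = 3), a difference of 0.40, or 0.27 without Tributyrin replicate 2. No test was run on this score, since the members were chosen with earlier results of these data known. As a single ratio of abundant members, Cd74 was at 0.397, 0.298 and 0.356 of B2m in counts with vehicle and at 0.395, 0.494 and 0.405 with Tributyrin, again with an overlap at vehicle replicate 1.

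The other genes of each route were described from longer lists. Over all 14133 genes tested, the base for each list, 7012 had a higher and 7121 a lower fitted level with Tributyrin. Of 21 class I presentation genes (heavy chains, TAP and the loading complex), 20 were tested. Of these, 17 had a higher and 3 a lower fitted level, and none had an unadjusted p under 0.05, against 4.25% of all genes. Without Tributyrin replicate 2 these counts turned to 6 higher and 14 lower. Their median log2 fold change was 0.07 with all libraries, -0.05 without that library and 0.00026 with scaling by library size alone, a setting that moved the median of all genes to -0.07. The ends of the list were the non-classical heavy chains H2-Q6 at 0.25 (SE 0.29) and H2-T22 at 0.22 (SE 0.149), and H2-T23 at -0.07 (SE 0.111). Heavy chains of this family share sequence, and 35% of the 50-base windows of H2-Q6 and 34.7% of those of H2-T22 occur in transcripts of other genes, so their counts are uncertain. For H2-K1 this share was 9.63% and for H2-D1 12.8%, and it was 0% for B2m, H2-Ab1, Cd74, Psmb9 and Psmb10.

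Of 16 class II presentation genes, 13 were tested, with 9 higher and 4 lower fitted levels and a median log2 fold change of 0.13. Without Tributyrin replicate 2 there were 7 higher and 6 lower, with a median of 0.03. With all libraries an unadjusted p under 0.05 was given for 5 of the 13, against 4.25% of all genes, and none passed an FDR of 10%. Besides the 3 members these were H2-Eb1, a second beta chain gene that lies next to H2-Aa, and H2-DMb1, a subunit of the peptide exchange factor H2-DM. H2-Eb1 was at 17.3, 17.9 and 19.1 CPM with vehicle and at 17.8, 36.9 and 23.6 CPM with Tributyrin (log2 fold change 0.53, SE 0.212, unadjusted p = 0.0301, edgeR). H2-DMb1 was at 1.42, 1.18 and 1.51 CPM with vehicle and at 1.89, 2.69 and 1.57 CPM with Tributyrin (0.60, SE 0.264, unadjusted p = 0.0471), and 22.7% of its 50-base windows occur in transcripts of other genes. Both were again highest in Tributyrin replicate 2, and without it their log2 fold changes were 0.19 and 0.35. Without that library 1 gene of the list, H2-Ab1, had an unadjusted p under 0.05, against 9.56% of all genes. Leaving out vehicle replicate 1 or 2 also left 1 gene of the list, against 4.9% and 2.82% of all genes. Leaving out vehicle replicate 3 left 2, against 2.68%.

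The lower end of the class II list held H2-Ob, which forms the modulator H2-O and lies next to H2-Ab1, at -0.50 (SE 0.391, unadjusted p = 0.23), and March1, a ubiquitin ligase that removes class II from the cell surface, at -0.46 (SE 0.282, unadjusted p = 0.131). Ciita, the master activator of class II transcription, was at 0.593, 1.27 and 1.33 CPM with vehicle and at 0.925, 1.88 and 0.522 CPM with Tributyrin. Its highest library was Tributyrin replicate 2 and its lowest Tributyrin replicate 3, and its log2 fold change was 0.09 (SE 0.454), or -0.53 (SE 0.446, unadjusted p = 0.266) without Tributyrin replicate 2. Ctss, the protease that trims the invariant chain, was at -0.09 (SE 0.119).

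For the immunoproteasome with its activator, all 6 genes were tested, 5 with a higher and 1 with a lower fitted level. The median log2 fold change was 0.12, or 0.04 by library size alone and 0.09 without Tributyrin replicate 2. With all libraries 0 of the 6 had an unadjusted p under 0.05 (edgeR), against 4.25% of all genes. Without Tributyrin replicate 2, 4 were higher and 2 lower, and 2 had an unadjusted p under 0.05, against 9.56% of all genes. The activator subunits Psme1 and Psme2 were at 0.15 (SE 0.0898) and 0.11 (SE 0.0793), and Pomp, the assembly chaperone, at 0.12 (SE 0.078). Of 21 regulators of MHC genes and of interferon gamma signalling, 20 were tested, 11 with a higher and 9 with a lower fitted level, and the median of 0.01 turned to -0.06 by library size alone and to -0.07 without Tributyrin replicate 2. Ifng, the cytokine itself, was at most 0.0295 CPM and was not tested. Irf1, an interferon-induced factor that acts on class I promoters, was at -0.05 (SE 0.142), and Nlrc5, the class I transactivator, at 0.02 (SE 0.271).

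Markers of the cells that make class II were read beside these values. All 10 macrophage markers were tested, 3 with a higher and 7 with a lower fitted level, and they summed to 251.7, 296.1 and 275.4 CPM with vehicle and to 246.8, 301.8 and 274.3 CPM with Tributyrin. Lyz2, which encodes lysozyme, was the macrophage marker with an unadjusted p under 0.05, at 82.2, 86.1 and 82.6 CPM with vehicle and 88.0, 94.4 and 100.8 CPM with Tributyrin (log2 fold change 0.17, SE 0.0736, unadjusted p = 0.0392, edgeR), and its groups did not overlap. Without Tributyrin replicate 2, 1 macrophage marker was higher and 9 were lower, with a median log2 fold change of -0.16. In that setting 3 of the 10 had an unadjusted p under 0.05 (edgeR), against 9.56% of all genes. Of 7 dendritic cell markers, 4 were tested and all 4 had a higher fitted level with all libraries (Zbtb46 0.06, SE 0.142; Clec9a 0.07, SE 0.22; Itgax 0.87, SE 0.559, on the log2 scale), while the sum of the 7 ranged over 16.3 to 21.1 CPM with vehicle and 17.2 to 21.2 CPM with Tributyrin. Xcr1, a receptor of cross-presenting dendritic cells, was at 0.514, 0.619 and 0.473 CPM with vehicle and at 1.07, 1.12 and 1.00 CPM with Tributyrin (log2 fold change 0.97, SE 0.29, unadjusted p = 0.00727, edgeR). Its groups did not overlap, and without Tributyrin replicate 2 it was at 0.93 (unadjusted p = 0.0238, edgeR). Counting error in a library was up to 31.6% of the value for Xcr1 and 40.8% for Itgax. Itgax, which encodes CD11c, was highest in Tributyrin replicate 2 at 1.08 CPM. Without that library Itgax was at 0.11, Zbtb46 at 0.04 and Clec9a at -0.05 on the log2 scale, so 3 of the 4 were higher. B cell markers summed to 5.36 to 7.81 CPM with vehicle and 6.83 to 7.36 CPM with Tributyrin, with 2 of 6 tested, and T and NK cell markers to 0.988 to 1.18 and 0.827 to 1.78 CPM, with 1 of 7 tested. No marker on these lists was at 0 in all 6 libraries.

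Centred on each gene's own mean, the class II members averaged 0.81 on the log2 scale in Tributyrin replicate 2. The 4 tested dendritic cell markers averaged 0.53, the class I members 0.35 and the macrophage markers 0.20. Of these 4 dendritic cell markers, Itgax had 6 to 31 counts a library. It was at 1.08 CPM in Tributyrin replicate 2 and at most 0.522 CPM elsewhere. In the other 5 libraries the class II average lay between -0.26 and -0.01. Vehicle replicate 2 showed another order, with class I at 0.20, macrophage markers at 0.14 and class II at -0.20. The part of dendritic cell or macrophage number in the class II values was not tested.

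**Figure D4:**
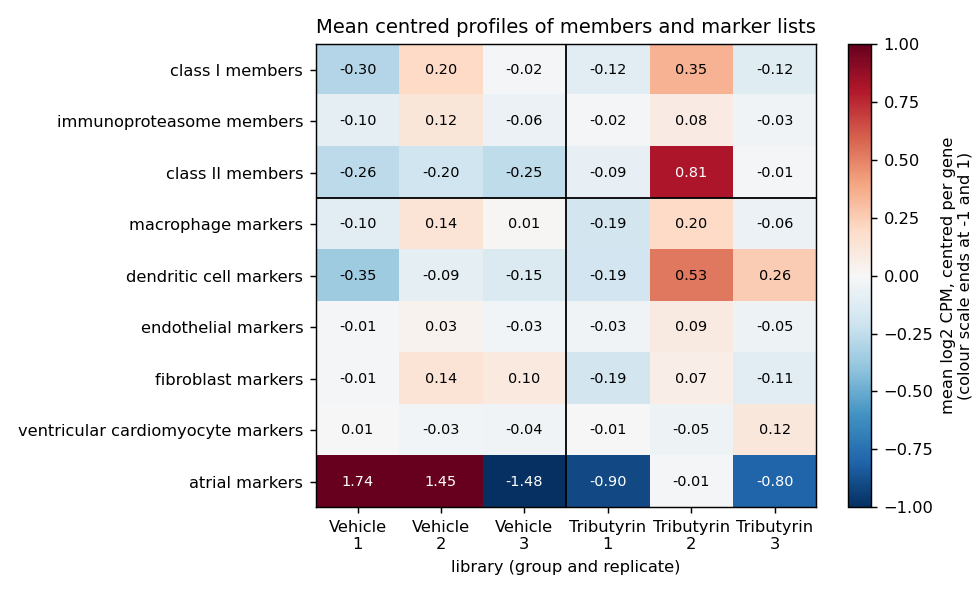
Mean log2 CPM of the member classes (upper 3 rows) and of marker lists (lower 6 rows) in each library, each gene centred on its mean over the 6 libraries; red is above and blue below that mean, with the value printed in each cell and colours ending at -1 and 1. The class II members are at 0.81 in Tributyrin replicate 2 and at or below -0.01 elsewhere, and atrial markers are high in vehicle replicates 1 and 2.

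The genes with the most similar profiles over the 6 libraries were found by the root mean square difference of centred log2 CPM from the class mean. Nearest to class II was H2-Eb1, at 0.107, followed by Rtl3 at 0.126, Lad1 at 0.158, C7 at 0.172 and Gm48768 at 0.186, among 1580 genes that varied at least as much as the class mean. Lad1, for example, was at 1.82, 1.59 and 1.42 CPM with vehicle and at 1.96, 4.29 and 2.00 CPM with Tributyrin, high in the same library as the class II genes. Nearest to class I were Il27ra at 0.0806, Comtd1 at 0.0811, Adra2c at 0.0962, and Maneal and 2700038G22Rik at 0.0964, among 4104 genes. Il27ra was at 1.90, 2.45 and 2.13 CPM with vehicle and at 1.82, 2.96 and 1.96 CPM with Tributyrin, with replicate 2 the highest of each group as for the class I members. These 10 genes were picked for their likeness, which is a description over 6 libraries.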

How the data were processed

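The data were raw counts of mRNA reads per gene from heart ventricle of 6 mice, deposited by the authors without normalization, 1 file per mouse. The authors trimmed adapters, removed poor and rRNA reads, mapped the rest with STAR and counted them per gene with htseq-count. The submitters' processing notes list cutadapt 1.13, STAR, HTSeq 0.6.1p1, DESeq2 1.14.1 and mm10. The annotation release and the use of strand in the counting were not given in the sources used here. Symbols came from GENCODE M21 (GRCm38), which matched 54165 of 54232 identifiers, and 0 lines named no gene.

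The groups were compared with the quasi-likelihood test of edgeR 4.0.16 in R 4.3.3 on all 6 libraries with TMM scaling, the filterByExpr filter (minimum count 10, minimum total 15), no covariate and Benjamini-Hochberg adjustment over the genes tested. The threshold was an FDR of 10%; 5% gave the same 0 genes. CPM, RPKM (GENCODE exonic length) and log2 values were computed here from the counts. No pair of libraries agreed within sampling noise (chi-square per degree of freedom 6.67 to 28.2). Totals of 20369746 to 32734485 counts set the counting error, which is smaller in the deeper libraries. Shared sequence was the share of a gene's transcript windows of 50 bases found in another gene. The steps were tested on simulated data.

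The alternatives changed the scaling (DESeq2-type size factors, or library size only), the filter (none, or a mean CPM of at least 5) or the tool (DESeq2 1.42.0, limma-voom from limma 3.58.1), added the replicate number as a block, or left out 1 library at a time. Named genes were the members, the ends of each pathway list, list genes with a role described beside the members, marker genes, neighbours, and the 5 nearest profiles per class. Members and lists were chosen with earlier results of these data known. Tap2, Ciita, Ctss, Irf1, Nlrc5, Psme1, Psme2, Pomp, H2-Eb1, H2-DMb1, Xist and Ddx3y were named after their values were seen. The alternatives for the counts of members and of class II list genes with an unadjusted p under 0.05, and the list counts without Tributyrin replicate 2, were added after the data were seen. Values of some single genes were left out.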

Additional observations from a re-analysis of the deposited data

How the results depend on the processing

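Genes past an FDR of 10% were 0 with all 6 libraries in edgeR, 167 with no filter on low counts, 11 with DESeq2 and 2 with the replicate block, and 0 to 3 when 1 library was left out. Genes with an unadjusted p under 0.05 were 600, but 1178 with no filter, 367 at a mean CPM of at least 5, and 389 to 1360 when 1 library was left out. Members past an FDR of 10% were 3 with no filter (adjusted p = 0.00134 for H2-Aa, 4.07e-07 for H2-Ab1 and 0.0013 for Cd74) and 0 under every other alternative. Members with an unadjusted p under 0.05, whose alternatives were chosen after seeing the data, fell from 3 to 1 with library size alone, a mean CPM of at least 5, DESeq2 or limma-voom, and were 1 to 3 when 1 library was left out. The class II list held 1 to 5 such genes when 1 library was left out, against 2.68% to 9.56% of all genes. The causes of these shifts were not tested.

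H2-Ab1 was higher with Tributyrin under all 13 alternatives, at log2 fold changes of 0.36 to 0.85 and an unadjusted p of at most 0.0217. Psmb8 turned to -0.044 with library size alone. When 1 library was left out, the log2 fold changes ranged from -0.12 to 0.17 for H2-K1, -0.050 to 0.17 for H2-D1, -0.11 to 0.21 for B2m, -0.094 to 0.31 for Tap1 and -0.057 to 0.12 for Psmb8, and each of these was negative without vehicle replicate 1 and without Tributyrin replicate 2. The difference between the groups in the log2 ratio of Psmb8 to Psmb5 then ranged from -0.27 to 0.036, positive without Tributyrin replicate 3, and that of Psmb9 to Psmb6 from -0.091 to 0.16, negative without vehicle replicate 1 and without Tributyrin replicate 2. The median of the immunoproteasome and activator list moved from 0.12 to 0.043 with library size alone. The difference of 0.42 between class II and class I stayed between 0.21 and 0.53 under its alternatives, lowest without Tributyrin replicate 2.

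The groups share replicate numbers, but the deviations of same-numbered libraries correlated at 0.214, 0.037 and 0.015, and the labels name no shared litter or day, so the numbers were not read as pairs. With the replicate block the log2 fold changes were 0.64 for H2-Ab1 (unadjusted p = 0.00231), 0.44 for H2-Aa (0.0137) and 0.38 for Cd74 (0.0217), none past an FDR of 10% in edgeR. Counting error in a library was at most 2.28% for H2-K1 and 10.2% for Psmb9. For Tap1 the 95% interval still ran from -0.39 to 0.55 with 3 mice a group.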
